A study of Mus musculus with 18 samples.

Results

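The genotype difference that mouse beta cells carried on both diets was read from all 18 of the 18 libraries of the series. LIRKO stands for liver insulin receptor knockout and Ctrl for the control genotype of the labels. HFD is read here as high-fat diet. The libraries are 6 Ctrl on chow, 5 Ctrl on HFD, 4 LIRKO on chow and 3 LIRKO on HFD, so that 7 LIRKO libraries were set against 11 Ctrl libraries with the diet as a block. The genes described are those that passed this test and had the same sign of change on chow and on HFD, 1190 of 19284 genes tested. They are called shared genes. The labels give no strain, age, sex, batch or duration of feeding, no promoter of the Cre and no allele of the controls, and they do not tie libraries to separate animals. The p-values therefore measure the spread between these libraries, part of which may be technical. The islets were cultured overnight and dispersed, and the beta cells were then sorted by scatter and by their own fluorescence, per the series' design text.

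The insulin receptor passes the insulin signal into the hepatocyte. Mice that lose it in the liver are known for severe hepatic insulin resistance, high circulating insulin and a large expansion of beta cell mass, while a high-fat diet brings a milder insulin resistance that develops over the feeding. Beta cells meet a raised demand by making more insulin, which loads the endoplasmic reticulum (ER), where proinsulin is folded, and by growth and division. Markers of the mature beta cell, such as the transcription factors Mafa and Pdx1 and the glucose transporter Slc2a2, are known to decline when the demand stays high.

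The deleted gene lies in another organ, so that Insr in these libraries does not check the labels. Insr was at 45.4 to 61.8 CPM (read counts relative to library sizes scaled by TMM) in Ctrl chow, 54.95 to 60.4 in LIRKO chow, 33.4 to 63.5 in Ctrl HFD and 52.4 to 54.5 in LIRKO HFD. Its change was 0.13 on the log2 scale (standard error, SE, 0.12, edgeR adjusted p = 0.579). Of all counts in a library 8.97% to 18.7% fell on Ins1 plus Ins2, and neither passed (Ins1 0.04, SE 0.20, adjusted p = 0.941, Ins2 −0.06, SE 0.18, adjusted p = 0.896). The insulin genes are near-identical paralogs, so reads could be split between them.

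Total counts were 19490235 to 51714775 per library. Some libraries stood apart before any test. LIRKO chow replicates 1 and 2 were almost alike, with a scaled median absolute deviation of 0.0912 for their log2 differences over 10978 genes. Replicates 3 and 4 were close as well (0.107), whereas this value was at least 0.176 for every other pair within a group. Both close pairs still differed by more than counting noise (chi-square per degree of freedom of 6.74 and 9.11), so all 4 were kept, and the lead counts were repeated after summing each pair to 1 library. Ctrl HFD replicates 1 and 2 had the lowest totals and the most reads on Malat1, an RNA kept in the nucleus, at 1.37% and 1.06% of counts where the other 16 libraries had 0.0866% to 0.600%. The lead counts were also repeated without these 2 libraries.

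With diet as a block, 1191 genes passed at an adjusted p under 0.05 in edgeR's quasi-likelihood test (6.18% of those tested), of which 661 were higher (3.43%) and 530 lower (2.75%) in LIRKO. All but 1 of them had the same sign on both diets, which left 1190 shared genes (6.17%), 660 higher (3.42%) and 530 lower (2.75%). A test that pools the diets favours genes of like sign, so this near-complete agreement is in part built into the choice. With the close LIRKO chow pairs summed there were 490 shared genes, 318 higher and 172 lower, of which 488 were among the 1190. Without Ctrl HFD replicates 1 and 2 there were 1553, of which 1043 were among the 1190, and with both changes together 630. The genes nearest the threshold had adjusted p-values of 0.0499 just inside and 0.05003 just outside.

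The rises were larger than the falls. The median change was 0.99 on the log2 scale over the 660 raised genes and −0.68 over the 530 lowered ones, beside −0.03 over all genes tested. At least a 2-fold change was seen for 322 raised and 133 lowered genes. Of the shared genes 1033 were protein coding, 55 lincRNA and 38 antisense. For the last group, and for genes that overlap a neighbour, the strand setting of the counting is not given in the sources used here, so their reads cannot be assigned with certainty. The raised genes were on average less abundant than the lowered ones, with a median average log2 CPM of 2.32 against 4.03 (3.32 over all genes).

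A stricter view keeps genes whose LIRKO libraries did not overlap the Ctrl libraries on chow and did not overlap them on HFD either. This held for 281 shared genes (1.46% of all genes tested), 168 higher (0.871%) and 113 lower (0.586%). Without any test, 292 genes separated in the same direction on both diets (1.51%) and 6 in opposite directions (0.0311%). The 281 became 257 with the pairs summed and 498 without Ctrl HFD replicates 1 and 2. Leaving out LIRKO HFD replicate 1 raised the number to 691. Groups with fewer libraries separate more easily, and the part of this in the counts of 498 and 691 was not tested.

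More genes passed on chow than on HFD. With 1 coefficient per group, 993 genes passed on chow (5.15%) and 98 on HFD (0.508%). With the close LIRKO chow pairs summed these counts were 193 and 54, so the gap depends in part on counting those libraries apart. Of the 1190 shared genes, 732 passed on chow, 89 on HFD and 63 on both, while 432 passed on neither diet alone. At an unadjusted p under 0.05, a mark reached by 18.8% of all genes on chow and 7.81% on HFD, 697 shared genes moved on both diets, 451 on chow only and 42 on HFD only. The median size of the change was 0.92 log2 units on chow and 0.61 on HFD, and 868 of the 1190 (72.9%) changed less on HFD. The pooled test that chose the shared genes drew on more chow than HFD libraries. These splits and sizes are therefore in part shaped by the choice. They do not measure how the genotype effect differs between the diets over all genes. The chow comparison rests on 4 against 6 libraries and the HFD comparison on 3 against 5. The 63 genes that passed on each diet include C1qtnf1, Cck, Fbp2, Gfra1, Rapgef5, Stc2, Ntn1, Chgb and Gc among the rises and Lpl, Ltbp2, Igf2, Fam196a, Mcoln3, Msln, Npy, Mlph and Celsr1 among the falls.

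**Figure D1:**
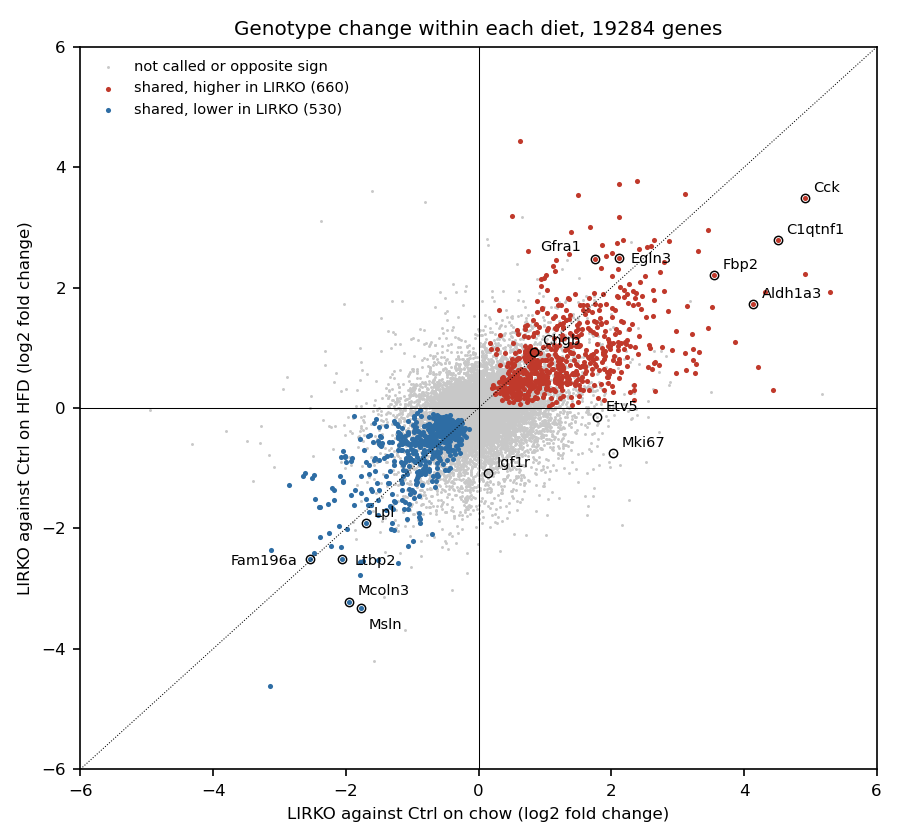
Genotype change on chow (horizontal axis, log2 fold change) against that on HFD (vertical axis) for the genes tested, with the 660 raised shared genes in red, the 530 lowered ones in blue and all other genes in grey. Most coloured points lie between the horizontal axis and the dotted line of equal change, and 2 genes lie outside the axes.

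Since a joint fit shares its spread between the diets, the chow and HFD libraries were also fitted apart, and these fits have no library in common. The chow libraries alone called 1653 of 17358 genes (9.52%) and the HFD libraries alone 19 of 18416 (0.103%). Of the 902 genes that were higher on chow and tested in both fits, 772 (85.6%) were also higher on HFD, with a median of 0.39, and 212 of them reached an unadjusted p under 0.05 upward against 4 downward. Of the 713 genes that were lower on chow, 636 (89.2%) were lower on HFD, with a median of −0.31, and 150 against 1 passed the same mark. Over all 17135 genes tested in both fits the sign was the same for 64.0%, and 2.65% passed that mark upward and 2.53% downward. The shares of like sign fell to 77.4% and 74.2% without Ctrl HFD replicates 1 and 2, beside 51.8% for all genes. With the close pairs summed they were 146 of 158 and 48 of 50.

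Read the other way, 18 of the genes called in the HFD libraries alone were also tested on chow. Of the 16 that were higher on HFD, 14 were higher on chow, among them C1qtnf1, Gfra1, Ntn1, Rapgef5 and Bmp3. The other 2, Astn1 (2.02 on HFD and −0.17 on chow) and Cadm3 (3.42 and −0.76), encode neural adhesion proteins and were not shared. They are named because they are the exceptions. Lpl and Ltbp2 were lower on both diets. Over all 19284 genes of the joint fit, 63.4% had the same sign on both diets, with a Pearson r of 0.45 across genes, which are not independent replicates. Without Ctrl HFD replicates 1 and 2 these values fell to 52.0% and 0.24.

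The largest shared rise among protein-coding genes with an average log2 CPM of at least 2 was that of C1qtnf1, which encodes a secreted protein related to adiponectin (ENSMUSG00000017446, chr11:118428203-118449963, GRCm38). It was at 0.279 to 3.79 CPM (median 0.922) in Ctrl chow and at 27.8, 30.2, 31.6 and 30.5 in the LIRKO chow libraries. On HFD it was at 3.08, 3.44, 1.81, 4.75 and 1.82 in Ctrl and at 19.7, 19.7 and 22.1 in LIRKO. No Ctrl library came near a LIRKO library on either diet. The change was 3.79 log2 units (SE 0.38, adjusted p = 1.79e-05), 4.51 on chow and 2.79 on HFD.

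Aldh1a3 makes retinoic acid from retinaldehyde and is known as a marker of failing and dedifferentiated beta cells (chr7:66390890-66427517). Its lowest, median and highest values in Ctrl chow were 1.14, 1.82 and 21.1 CPM, and the LIRKO chow libraries were at 79.5, 82.1, 93.5 and 96.7. On HFD the Ctrl libraries were at 11.2, 17.97, 8.85, 24.3 and 13.9 and the LIRKO libraries at 52.9, 44.4 and 54.8. The genotypes did not overlap on either diet, and the smaller step on HFD went with higher Ctrl values there. The change was 3.20 (SE 0.57, adjusted p = 0.00193), with 4.14 on chow and 1.73 on HFD. The difference between these was −2.41 with a 95% interval from −4.31 to −0.51, and it did not pass over all genes (interaction adjusted p = 0.833). Aldh1a3 belongs to the dedifferentiation and progenitor list, which did not rise as a whole. Of its 14 tested genes 3 were shared rises (Aldh1a3, Cck and Gast) and 3 shared falls (Hes1, Nnat and Npy). The list's median was −0.55, with 8 members lower on both diets and 3 higher.

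Fbp2, the muscle form of the gluconeogenic enzyme fructose-1,6-bisphosphatase, rose by 2.99 log2 units (SE 0.34, adjusted p = 4.66e-05). It was at 1.70 to 4.54 CPM (median 4.30) in Ctrl chow and at 38.4, 42.1, 45.9 and 44.4 in LIRKO chow. On HFD the Ctrl libraries were at 3.82, 6.47, 6.16, 14.8 and 2.67, and the LIRKO libraries at 10.9, 42.4 and 41.2. LIRKO HFD replicate 1 thus fell inside the Ctrl range. The same library was the lowest of the 3 for Egln3, the oxygen-dependent prolyl hydroxylase that responds to hypoxia, at 9.55 against 42.3 and 42.8 CPM. Egln3 was at 1.44, 3.31, 5.42, 16.0 and 1.74 in Ctrl HFD and at 15.0, 16.1, 18.9 and 17.1 in LIRKO chow against 1.08 to 8.63 in Ctrl chow. Its change was 2.28 (SE 0.45, adjusted p = 0.00368).

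Gfra1, the receptor for the neurotrophic factor GDNF, and Rapgef5, an exchange factor for the small GTPase Rap, rose with genotype as well. Gfra1 was at 1.08 to 6.21 CPM in Ctrl chow (median 1.93) and at 7.81, 7.56, 10.5 and 9.09 in LIRKO chow, then at 2.63, 3.86, 3.11, 5.07 and 2.75 in Ctrl HFD and at 22.3, 16.3 and 19.4 in LIRKO HFD. The groups did not overlap, and its step was larger on HFD (2.47) than on chow (1.75), with a difference of 0.72 and a 95% interval from −0.33 to 1.77. Over both diets Gfra1 changed by 2.08 (SE 0.27, adjusted p = 0.000144) and Rapgef5 by 2.09 (SE 0.23, adjusted p = 3.37e-05). The other large rises were Serpina7 (2.44), which binds thyroid hormone in the blood, the ER degradation factor Derl3 (2.25), the IGF-binding protein Igfbp3 (2.20) and the lysine-degrading enzyme Aass (2.11). They also took in the atypical kinase Mapk4 (2.09), the guidance cue Ntn1 (2.07), the collagen lysyl hydroxylase Plod2 (2.04), the synaptic proteins Iqsec3 (2.03) and Lin7a (1.92). Igfbp3 overlapped on both diets. It was at 2.38 to 57.2 CPM in LIRKO chow against 1.73 to 9.73 in Ctrl chow, and LIRKO chow replicates 1 and 2 showed no rise. The Igfbp3 call was lost without LIRKO chow replicate 3, without LIRKO chow replicate 4, without LIRKO HFD replicate 2 and with no diet block.

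**Figure D2:**
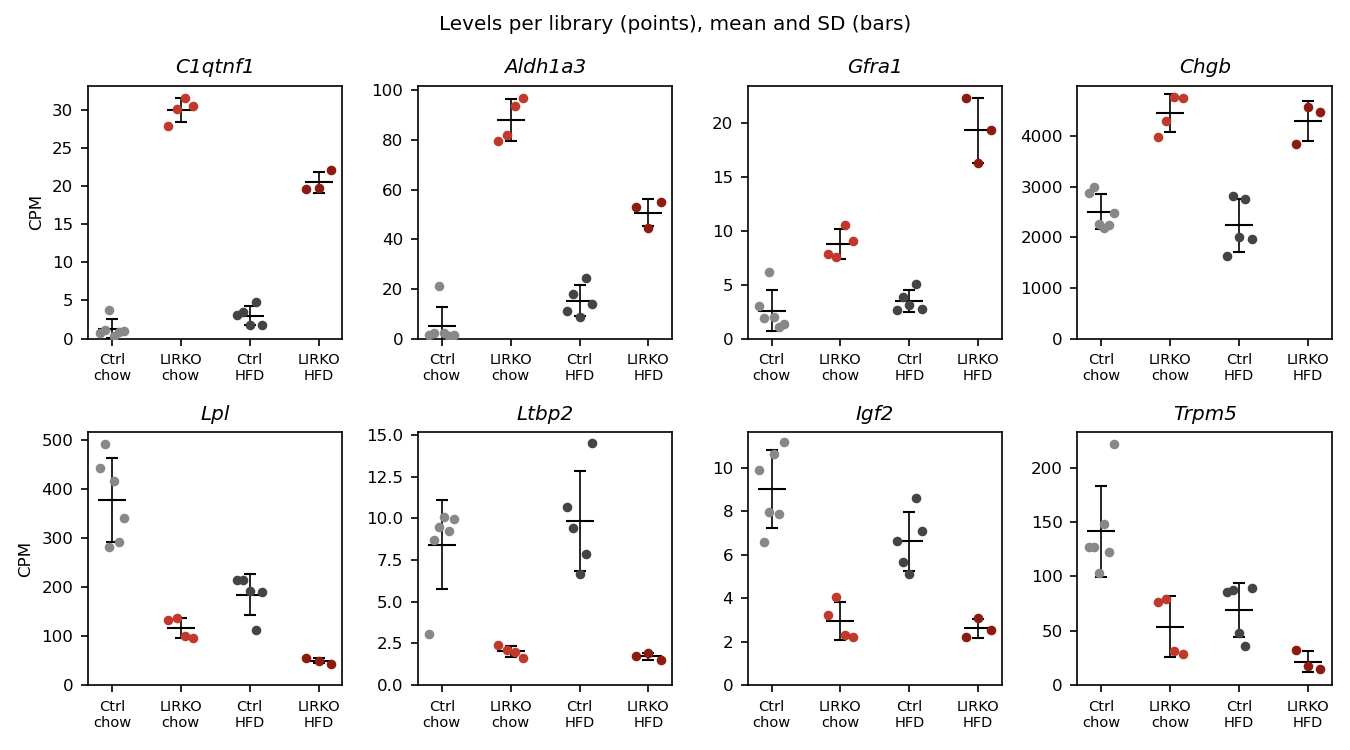
Level (CPM) of 8 shared genes in each library (points) of the 4 groups, with the mean and standard deviation as bars. For C1qtnf1, Aldh1a3, Gfra1, Chgb, Lpl, Igf2, Ltbp2 and Trpm5 no LIRKO library overlaps the Ctrl libraries of its diet.

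Among the falls the smallest p belonged to Lpl, the lipoprotein lipase that frees fatty acids from circulating triglyceride (chr8:68880491-68907448). Ctrl chow libraries were at 282 to 492 CPM (median 378), and LIRKO chow libraries at 132, 136, 100.4 and 95.4. The Ctrl HFD libraries were at 214, 215, 192, 113 and 189, and the LIRKO HFD libraries at 54.3, 49.3 and 43.8. Every LIRKO library was below every Ctrl library of its diet. The change was −1.79 (SE 0.15, adjusted p = 5.33e-06), −1.70 on chow and −1.91 on HFD. Angptl4, a secreted inhibitor of this enzyme, rose by 1.51 (SE 0.30, adjusted p = 0.0043). They were the only 2 shared genes among the 25 tested members of the list for lipid uptake, storage and oxidation, whose median was 0.08.

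Ltbp2, a matrix protein related to those that hold latent TGF-beta, was at 3.05 to 10.1 CPM (median 9.37) in Ctrl chow and at 2.40, 2.10, 1.96 and 1.62 in LIRKO chow. It was at 10.7, 9.45, 6.69, 7.87 and 14.5 in Ctrl HFD and at 1.77, 1.90 and 1.504 in LIRKO HFD. The lowest Ctrl value on chow belonged to replicate 1, yet the groups did not overlap. Ltbp2 changed by −2.25 (SE 0.23, adjusted p = 1.79e-05). Among protein-coding genes above the same abundance limit, Fam196a, a gene of the nervous system, had the largest fall (−2.53, SE 0.25, adjusted p = 1.79e-05), with almost the same step on chow (−2.54) and on HFD (−2.51). Besides Ltbp2, the falls that followed it in size in that set were the lysosomal cation channel Mcoln3 (−2.42), Msln (−2.38), the potassium channel Kcnj12 (−2.18), the brachyury homolog T2 (−2.18) and the matrix glycoprotein Reln (−1.98). Mcoln3 and Kcnj12 were each below every Ctrl library of the same diet in all 7 LIRKO libraries. Emid1 (−1.64), Ntm (−1.64), the netrin receptor Unc5c (−1.61), Trpm5 (−1.52), Zbtb7c (−1.52), Igf2 (−1.49) and Nrcam (−1.48), with Lpl, completed the 15.

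**Figure D3:**
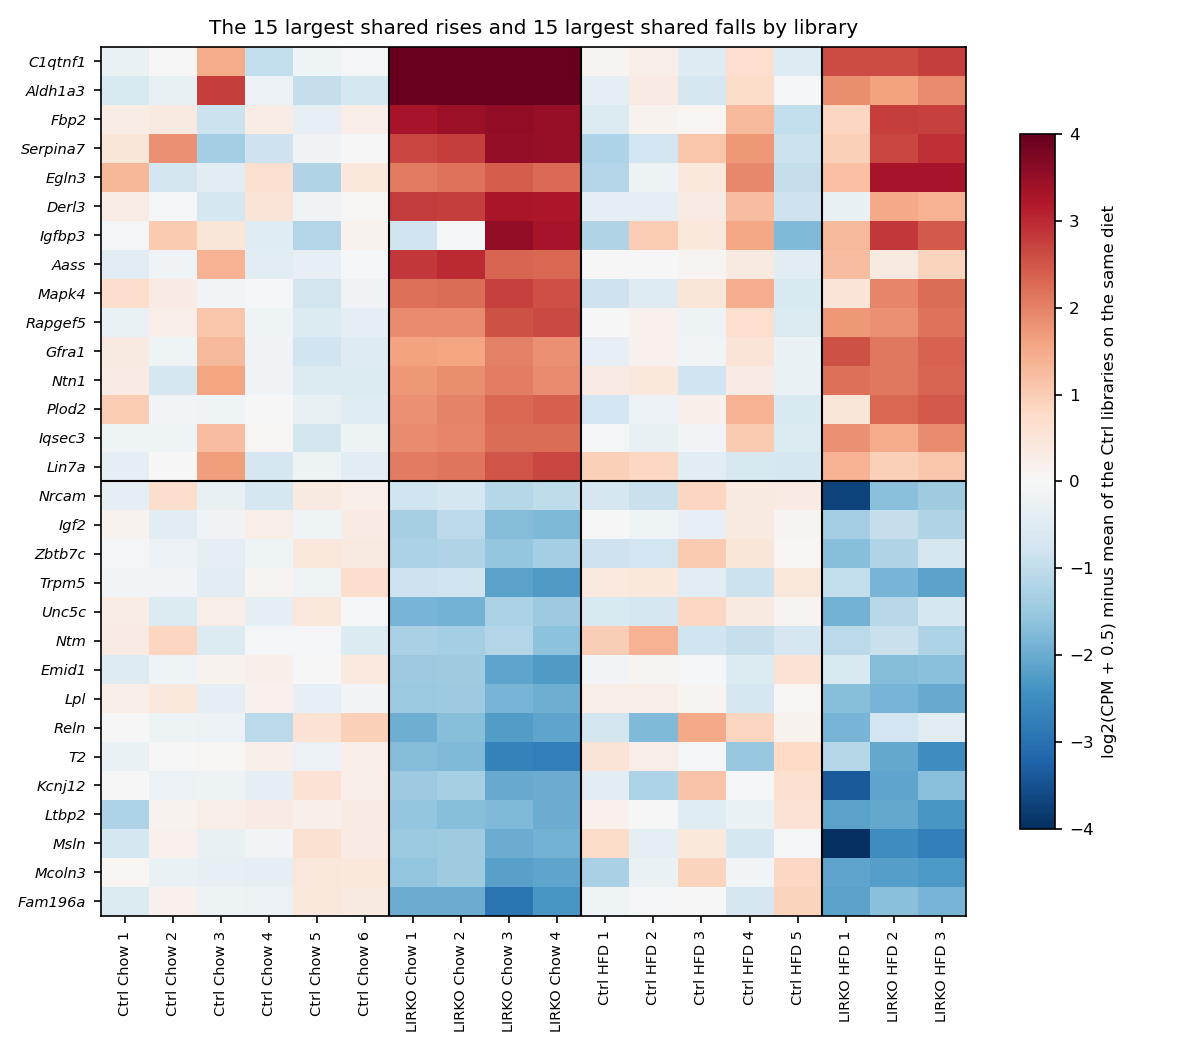
Level of the 15 largest shared rises and the 15 largest shared falls in each of the 18 libraries, as log2(CPM + 0.5) minus the mean of the Ctrl libraries on the same diet, with colours limited to ±4. Falls are blue in both LIRKO blocks, and rises are red in most LIRKO libraries. Igfbp3 lay below the Ctrl mean in LIRKO chow replicates 1 and 2 (−0.79 and −0.07), and Derl3 in LIRKO HFD replicate 1 (−0.30). LIRKO HFD replicate 1 is paler than its group for several rises.

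Of 33 tested genes of protein folding and degradation in the ER, 11 were shared rises and none a shared fall, and 26 were higher on both diets, as were 28.1% of all genes. The list's median was 0.34, beside −0.03 over all genes. The shared members were Derl3, Fkbp11, Creld2, Hsp90b1, P4hb, Pdia6, Os9, Sdf2l1, Manf, Edem2 and Dnajc3. They hold chaperones (Hsp90b1, Dnajc3), disulfide and prolyl isomerases (P4hb, Pdia6, Fkbp11), and factors that pass misfolded proteins to degradation (Derl3, Os9, Edem2). These counts, and those of the other lists, stand beside 3.42% of all genes raised and 2.75% lowered as shared genes. With the close LIRKO chow pairs summed the list held 1 shared rise, and without Ctrl HFD replicates 1 and 2 it held 12.

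Derl3 took the largest step. Ctrl chow libraries were at 2.57 to 6.70 CPM (median 4.53) and LIRKO chow libraries at 34.2, 33.2, 47.6 and 46.3, with no overlap. On HFD the Ctrl libraries were at 4.72, 4.89, 8.02, 15.6 and 3.38 and the LIRKO libraries at 5.05, 19.1 and 17.5, so that the groups overlapped through Ctrl replicate 4 and LIRKO replicate 1. Its change was 2.25 over both diets (SE 0.39, adjusted p = 0.00165), 3.11 on chow and 0.92 on HFD. The abundant chaperone Hsp90b1 rose by 0.56 (SE 0.14, adjusted p = 0.0215), from 1220 to 2360 CPM in Ctrl chow to 2463, 2495, 2884 and 2826 in LIRKO chow, and from 1181, 1260, 1471, 1711 and 1074 in Ctrl HFD to 1443, 1635 and 1821 in LIRKO HFD. It did not overlap on chow and overlapped on HFD. Hspa5 (BiP), the master chaperone of the ER, did not pass (0.38, SE 0.15, adjusted p = 0.154).

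The ER stress element, which reads CCAAT and CCACG with 9 bases of any kind between them, is known to bind NF-Y with ATF6 or XBP1 and to drive chaperone genes. It was searched on both strands in the 250 bases before the RefSeq start site (GRCm38.p6). The motifs CRE, ATF4 composite, E-box, ETS, FOXO, STAT and AP-1 were searched in the same windows. Each of them stood in 0 or 1 of the 10 raised ER genes with such a window (of 11). The ER stress element stood in 5 of these 10 and is described because it had the most matches. It also stood in 4 of the 16 ER genes with a window that were not shared, namely Calr, Canx, Hspa5 and Syvn1. Whether it was more common in raised than in other ER genes was not tested. Over the 32851 windows of the table, from genes of every kind, the share was 0.113%, counted per window and not per gene. A window was found for only 72.7% of the other ER genes and 64.6% of all tested genes. For the raised and the lowered shared genes it was 71.4% and 72.5%. The count of 4 of 16 is therefore incomplete, and percentages over those sets are void and not given. The 5 windows are shown because they carry the element. Each is written 5′ to 3′ on the strand of the gene, ends at the base before the start site, and has the element in capitals.
Derl3 (chr10:75893148-75893397, plus strand): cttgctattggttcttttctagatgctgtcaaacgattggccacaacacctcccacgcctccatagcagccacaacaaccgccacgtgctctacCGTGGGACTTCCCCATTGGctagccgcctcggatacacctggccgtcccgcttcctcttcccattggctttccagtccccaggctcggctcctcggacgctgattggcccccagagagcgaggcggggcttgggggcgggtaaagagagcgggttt
Hsp90b1 (chr10:86705445-86705694, minus strand): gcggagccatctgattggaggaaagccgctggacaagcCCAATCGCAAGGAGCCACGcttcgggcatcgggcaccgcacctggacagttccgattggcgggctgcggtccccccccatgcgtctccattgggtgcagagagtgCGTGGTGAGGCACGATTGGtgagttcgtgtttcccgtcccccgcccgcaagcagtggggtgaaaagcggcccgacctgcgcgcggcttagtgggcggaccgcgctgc
Creld2 (chr15:88819396-88819645, plus strand): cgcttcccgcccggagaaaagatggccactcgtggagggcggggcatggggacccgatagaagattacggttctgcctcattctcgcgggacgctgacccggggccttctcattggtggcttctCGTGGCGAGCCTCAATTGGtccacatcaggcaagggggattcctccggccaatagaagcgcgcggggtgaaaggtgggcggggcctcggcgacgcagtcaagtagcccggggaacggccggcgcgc
Pdia6 (chr12:17266339-17266588, plus strand): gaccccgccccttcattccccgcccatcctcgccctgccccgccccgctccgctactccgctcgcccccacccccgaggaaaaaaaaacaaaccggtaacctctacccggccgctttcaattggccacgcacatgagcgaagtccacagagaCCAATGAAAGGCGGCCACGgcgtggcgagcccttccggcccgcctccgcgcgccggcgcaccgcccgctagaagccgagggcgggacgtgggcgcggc
Dnajc3 (chr14:118937682-118937931, plus strand): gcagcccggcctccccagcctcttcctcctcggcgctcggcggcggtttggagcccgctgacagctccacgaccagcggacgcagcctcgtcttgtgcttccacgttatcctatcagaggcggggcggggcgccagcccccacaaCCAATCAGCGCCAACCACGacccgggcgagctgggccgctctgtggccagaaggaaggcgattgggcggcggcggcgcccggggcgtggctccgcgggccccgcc
Hsp90b1 holds the element in both orientations, Pdia6 and Dnajc3 in the forward one, and Creld2 and Derl3 in the reverse one. The element ended 79 to 193 bases before the start site, counted for Hsp90b1 at the forward one. These matches describe letters and do not show that a factor was bound. The changes of the 5 genes ran from 0.36 (Dnajc3, adjusted p = 0.0386) to 2.25 (Derl3), and the log2 changes of Calr and Canx, which hold the element too, were 0.09 and 0.05 and did not pass.

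Targets of the stress factor ATF4 gave 4 shared rises and no fall among 34 tested members, with a median of 0.14. The median was 0.27 on chow and −0.04 on HFD, and 13 members were higher on both diets, as were 28.1% of all genes. Atf4 (−0.07), Ddit3 (−0.45), Trib3 (−0.18) and Chac1 (0.14) were not shared genes. The hormone Stc2, a secreted inhibitor of the pappalysins, was the clearest rise. It was at 1.12 to 2.11 CPM (median 1.23) in Ctrl chow, 7.91, 8.01, 6.31 and 5.85 in LIRKO chow, 0.645, 1.02, 0.622, 1.42 and 0.555 in Ctrl HFD and 1.31, 4.01 and 3.81 in LIRKO HFD. It was separate on chow, and on HFD LIRKO replicate 1 lay below Ctrl replicate 4. Stc2 changed by 2.14 (SE 0.23, adjusted p = 3.68e-05), and Ddit4, an inhibitor of the growth kinase mTORC1, by 0.45 (SE 0.09, adjusted p = 0.00469).

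The hypoxia list held 7 shared rises and no fall among 16 members. Of the 16, 14 were higher on both diets, as were 28.1% of all genes. The list's median was 0.89, the highest of the 29 process lists. Besides Egln3 the rises were Bhlhe40 (1.19), the lipid droplet protein Hilpda (1.15), Pdk1 (1.13), which closes the pyruvate dehydrogenase complex, Ankrd37 (1.07), the histone demethylase Kdm3a (0.79) and Mxi1 (0.63). The count was 2 with the pairs summed and 5 without Ctrl HFD replicates 1 and 2. None of the 7 was free of overlap on both diets. Of the 26 alternative settings, Kdm3a lost its call in 19, Hilpda in 16, Bhlhe40 in 6, Pdk1 in 5 and Ankrd37 in 2. Egln3 and Mxi1 kept theirs in all. Vegfa, the classical target, was at 0.15 and Car9 at −0.25, and neither passed. Glycolysis and gluconeogenesis had 4 rises and 2 falls of 31 with a median of 0.57. Pcx, which carboxylates pyruvate in the mitochondrion, fell by 0.64 on the log2 scale (SE 0.12, adjusted p = 0.00222) without overlap on either diet, and Ldhb was the other fall. With the pairs summed the list held 3 rises and 1 fall.

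Of 31 genes of beta cell identity, 7 were shared falls and none a shared rise, and 24 were lower on both diets (median −0.23), as were 35.3% of all genes. They were the cation channel Trpm5 (−1.52), the transcription factors Mafa (−1.31), Pdx1 (−0.68) and Foxa2 (−0.35), the glucose transporter Slc2a2 (−0.94), the fatty acid receptor Ffar1 (−0.70) and the granule zinc transporter Slc30a8 (−0.62). With the pairs summed the list held 1 shared fall, and without Ctrl HFD replicates 1 and 2 it held 8. In bulk libraries, fewer cells of a type and less RNA per cell cannot be told apart.

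Trpm5 was at 103 to 222 CPM in Ctrl chow (median 127) and at 76.8, 79.1, 31.0 and 28.3 in LIRKO chow, then at 85.7, 87.0, 48.3, 35.8 and 89.0 in Ctrl HFD and at 32.3, 17.7 and 14.4 in LIRKO HFD. It was lower in every LIRKO library than in every Ctrl library of its diet (SE 0.26, adjusted p = 0.00153), and LIRKO chow replicates 3 and 4 lay far below replicates 1 and 2. Mafa, which drives insulin transcription in mature cells, was at 32.9 to 108 CPM in Ctrl chow (median 54.3) and at 37.6, 45.9, 16.4 and 14.9 in LIRKO chow. On HFD it was at 6.95, 6.24, 22.1, 21.0 and 30.8 in Ctrl and at 8.71, 4.36 and 5.19 in LIRKO. Mafa overlapped on both diets, and Ctrl HFD replicates 1 and 2 were as low as the LIRKO libraries. Its adjusted p was 0.0253, and the call was lost in 7 of 26 alternative settings, among them the summed pairs. The Pdx1 call (adjusted p = 0.00484) was lost only in the 2 settings with summed pairs. Slc2a2 (adjusted p = 0.0424) and Ffar1 (adjusted p = 0.0401) lost theirs in 15 and 18 of the 26.

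The granule list had 4 shared rises and 3 falls of 27 (median −0.04), and 2 rises and 1 fall with the pairs summed. The rises were the granins Chgb (0.88), Scg2 (0.78) and Scg3 (0.42), which package hormone in the dense core, and the priming factor Unc13a (0.78). Chgb was at 2176 to 2988 CPM (median 2372) in Ctrl chow, 3991, 4308, 4777 and 4751 in LIRKO chow, 1635, 2823, 2002, 2763 and 1975 in Ctrl HFD and 3841, 4571 and 4471 in LIRKO HFD. No library of one genotype reached the other on either diet (SE 0.12, adjusted p = 0.000214). Scg2 separated in the same way (SE 0.16, adjusted p = 0.00475). The falls were Mlph (−1.39), Sytl4 (−0.69) and the SNARE protein Stx1a (−0.42), all of which act where granules move or fuse. Sytl4 lost its call in 18, Unc13a in 12 and Stx1a in 9 of the 26 alternative settings.

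Of 20 tested genes of neuropeptides and peptide hormones 5 were shared rises, namely Cck, Gast, Pdyn, Cartpt and Pthlh, and Npy was the only fall. Cck, the gut hormone cholecystokinin, had a large step from a very low base. It was at 0 to 0.0772 CPM in Ctrl chow, 0.759, 0.823, 1.34 and 1.10 in LIRKO chow, 0.546, 1.54, 0.207, 0.220 and 0.0528 in Ctrl HFD and 1.80, 8.52 and 6.11 in LIRKO HFD. The groups did not overlap (4.04, SE 0.53, adjusted p = 0.00015), and this fitted value depends on the prior count because 2 Ctrl chow libraries had no read. Pdyn, the precursor of dynorphins, changed by 1.91 (SE 0.39, adjusted p = 0.00484), with 2.66 on chow and 0.76 on HFD. Npy, neuropeptide Y, fell from 1.67 to 6.71 CPM in Ctrl chow to 1.05, 1.05, 1.14 and 1.32 in LIRKO chow, and from 0.397, 0.559, 0.414, 0.567 and 0.370 in Ctrl HFD to 0.0290, 0.109 and 0.125 in LIRKO HFD (−2.14, SE 0.27, adjusted p = 0.000115). In retinoid metabolism 3 of 16 rose and none fell, and beside Aldh1a3 they hold Cyp26b1 (2.26, SE 0.50, adjusted p = 0.00872), which degrades retinoic acid. Cyp26b1 was low and overlapped on both diets, at 0.0880 to 0.463 CPM in Ctrl chow and 0.374 to 3.85 in LIRKO chow. On HFD it was at 0.466 to 3.68 in Ctrl and 1.54 to 7.50 in LIRKO. Its call was lost with no diet block.

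Insulin and IGF signalling had 6 shared rises and 3 falls of 34 tested (median −0.02). The counts were 2 and 1 with the pairs summed, and 6 and 5 without Ctrl HFD replicates 1 and 2. The ligand Igf2 fell by 1.49 log2 units (SE 0.17, adjusted p = 3.68e-05). It was at 6.57 to 11.2 CPM in Ctrl chow (median 8.94) and 3.23, 4.04, 2.30 and 2.20 in LIRKO chow, and at 6.65, 5.68, 5.09, 8.60 and 7.08 in Ctrl HFD and 2.21, 3.10 and 2.53 in LIRKO HFD. The groups did not overlap. Of the proteins that bind or free IGF, Pappa2 (1.57), Igfbp3, Stc1 (1.34) and Stc2 rose, while Igfbp7 fell (−0.48). Pappa2 and Pappa cut IGF-binding proteins, and the stanniocalcins Stc1 and Stc2 inhibit them. The adaptor Irs2 rose by 0.86 (SE 0.21, adjusted p = 0.0178), and its step was 1.23 on chow and 0.36 on HFD, where its libraries overlapped (28.2, 46.7 and 54.7 in LIRKO against 20.6 to 50.7 CPM in Ctrl). Tsc1, a brake on mTORC1, fell by 0.33 on the log2 scale (SE 0.09, adjusted p = 0.0303), a call lost in 11 of the 26 settings.

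Feedback genes of the growth factor kinase ERK gave 5 shared rises and no fall of 16 (median 0.55, with 0.75 on chow and 0.21 on HFD). They were the phosphatases Dusp4 (1.43) and Dusp5 (0.80), the inhibitors Spry4 (0.89) and Spred3 (0.62) and the ETS factor Etv1 (0.72). Dusp4 was at 11.5 to 23.9 CPM (median 16.2) in Ctrl chow and at 56.8, 58.5, 72.0 and 72.5 in LIRKO chow. It was at 7.45, 7.73, 12.8, 27.3 and 7.82 in Ctrl HFD and 9.46, 22.7 and 26.4 in LIRKO HFD, where Ctrl replicate 4 was above all LIRKO libraries (adjusted p = 0.00557). The count was 4 with the pairs summed and 5 without Ctrl HFD replicates 1 and 2. The activin, BMP and TGF-beta list had 5 shared rises and 3 falls of 34 (median 0.03). The counts were 3 and 1 with the pairs summed, and 4 and 3 without Ctrl HFD replicates 1 and 2. The rises were Bmp2 (2.36, SE 0.45, adjusted p = 0.00321), Bmp3 (1.44, SE 0.29, adjusted p = 0.00484), Bmp6, Inhba and Tgfb3. The falls were Smad9 (−1.88), Id3 (−1.04) and Acvr1c. Bmp2 was low, and its range of 0.0526 to 0.489 CPM in Ctrl chow overlapped that of 0.474 to 2.22 in LIRKO chow. Bmp3 was at 22.5, 17.3 and 21.7 CPM in LIRKO HFD against 3.82 to 6.61 in Ctrl HFD, and overlapped on chow.

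**Figure D4:**
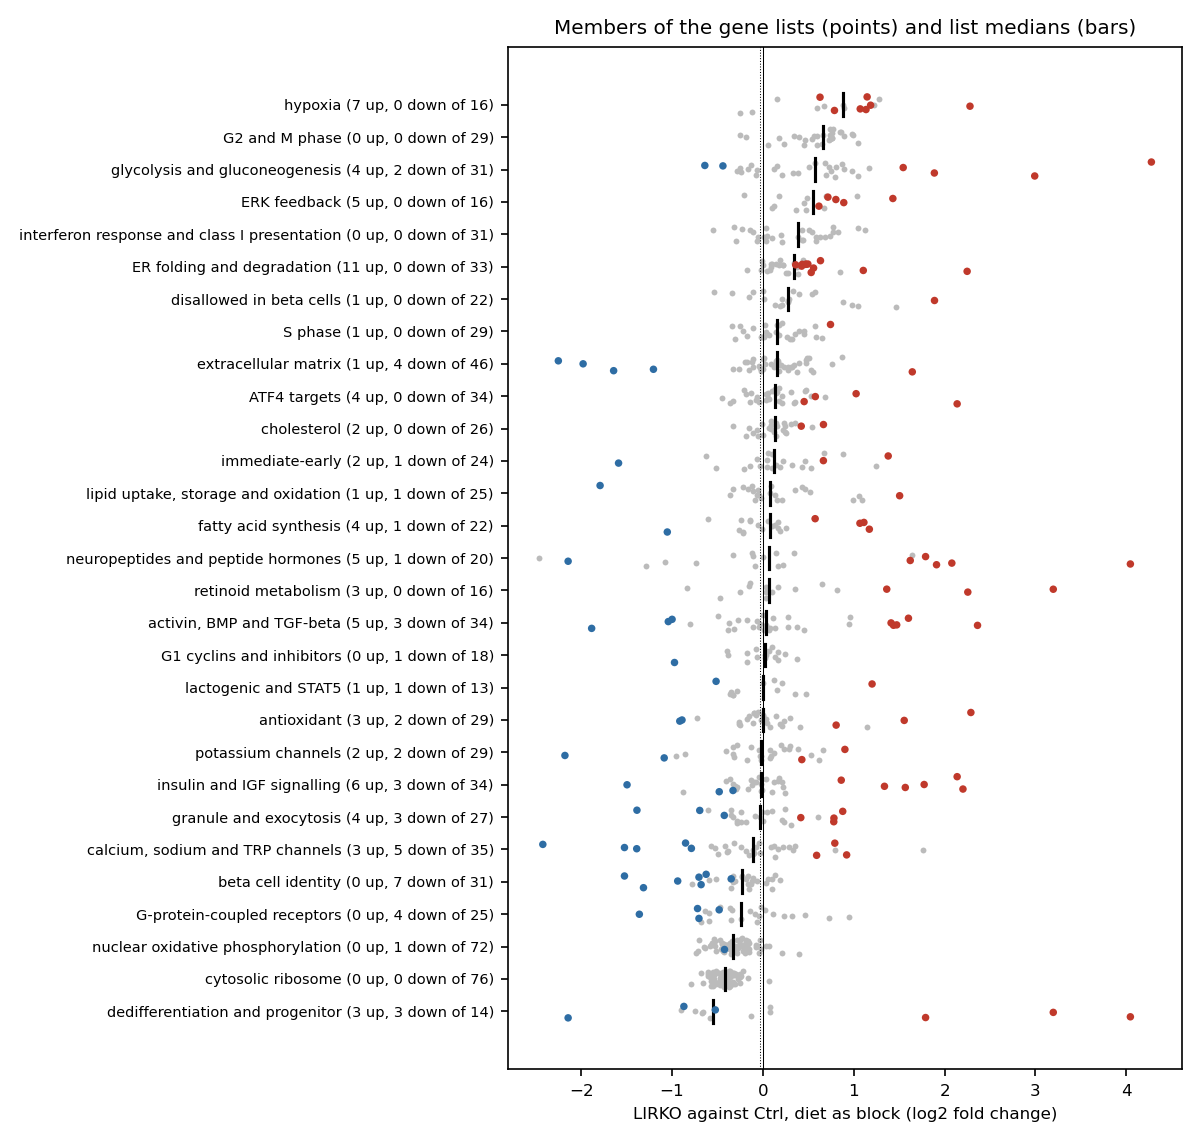
Change with genotype (log2 fold change, diet as block) of each tested member of the 29 process lists, with shared rises in red, shared falls in blue, other members in grey and the list's median as a bar. The lists run from hypoxia at the top, with a median of 0.89, to the dedifferentiation and progenitor list at the bottom, and the dotted line is the median of all genes.

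Fatty acid synthesis had 4 rises and 1 fall of 22 (median 0.08), with Thrsp (1.17), Arrdc4 (1.11) and the triglyceride enzyme Dgat2 (1.07) among the rises. Thrsp, Arrdc4 and the fourth rise, Txnip, are known targets of the glucose-sensing factor ChREBP. The fall was that of Scd1 (−1.05), the desaturase that makes monounsaturated fatty acids. The synthesis enzymes Fasn (−0.14), Acaca (−0.25), Acly (−0.14) and Elovl6 (−0.22) did not pass. With the pairs summed there were 3 rises and no fall. Of 26 cholesterol genes Fdft1 (0.42, squalene synthase) and Insig1 (0.67) rose and none fell, with 4 rises and 1 fall without Ctrl HFD replicates 1 and 2. The antioxidant list had 3 rises and 2 falls of 29 (median −0.0003). Of its members 10 were higher and 8 lower on both diets, beside 28.1% and 35.3% of all genes. The ER peroxiredoxin Prdx4 (0.81) and extracellular superoxide dismutase Sod3 (2.29) rose with Gpx3, and the metallothioneins Mt1 (−0.91) and Mt2 fell. Sod3 was at most 0.447 CPM in a Ctrl library.

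Sodium, calcium and TRP channels had 3 rises and 5 falls of 35, with Scn3a (0.92), a sodium channel pore, among the rises and the TRP channels Mcoln3 and Trpm5 among the falls. Potassium channels had 2 of each among 29, with the calcium-activated Kcnn3 (0.90) up and Kcnj12 down. Over all genes 3.42% were shared rises and 2.75% shared falls, and counts this small were not tested against these shares. Of 25 G-protein-coupled receptors 4 fell and none rose (median −0.24), among them the fatty acid receptors Ffar1 and Ffar3 (−0.72) and the adhesion receptor Celsr1 (−1.36). The Ffar3 call was lost in 6 of the 26 settings and that of Celsr1 in none. The matrix list had 1 rise, Lama5 (1.64), and 4 falls of 46, which include Ltbp2, Emid1 and Reln. With the pairs summed the sodium, calcium and TRP channels had 2 rises and 3 falls, the potassium channels no rise and 1 fall, the G-protein-coupled receptors 1 fall, and the matrix list 1 rise and 2 falls. Without Ctrl HFD replicates 1 and 2 the potassium channels had 2 rises and 4 falls, the receptors 1 rise and 3 falls, and the matrix list 3 rises and 4 falls.

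Some large lists leaned one way with few or no calls. Cytosolic ribosomal proteins had no shared gene among 76 while 74 were lower on both diets (median −0.42). Nuclear genes of oxidative phosphorylation had 1, Cyc1 (−0.42, adjusted p = 0.0439), among 72, of which 50 were lower on both diets (median −0.32). Interferon and class I presentation genes had no shared gene of 31, 17 being higher on both diets (median 0.38). Over all genes 35.3% were lower on both diets and 28.1% higher. The leans were unequal between the diets. On chow the 3 medians were −0.48, −0.46 and 0.05, and on HFD they were −0.34, −0.11 and 0.61. Without Ctrl HFD replicates 1 and 2, the libraries rich in Malat1, the medians over both diets shrank to −0.12, −0.19 and 0.24. The part of those libraries in the remainder was not tested.

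None of 29 genes of G2 and M phase was a shared gene, and 13 of them passed upward on chow (2.95% of all genes). The list's median was 1.33 on chow and −0.27 on HFD. Mki67, a marker of cycling cells, was at 2.05 to 6.04 CPM in Ctrl chow (median 2.98) and at 17.9, 16.9, 12.8 and 12.1 in LIRKO chow, but at 3.77, 3.12, 2.96, 9.79 and 3.65 in Ctrl HFD and at 2.90, 2.55 and 2.88 in LIRKO HFD. Its change was 2.03 on chow (adjusted p = 0.00183) and −0.75 on HFD (adjusted p = 0.704). The difference between the diets was −2.77 with a 95% interval from −3.85 to −1.70, and did not pass over all genes (adjusted p = 0.136). In S phase Rrm2 (0.73), a subunit of ribonucleotide reductase, was the only shared gene of 29, and 3.42% of all genes were shared rises. The S phase list's median was 0.14 on chow and 0.08 on HFD.

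Etv5, an ETS factor downstream of ERK, was the 1 gene that passed with diet as a block and had opposite signs. Its change was 1.03 over both diets (SE 0.25, adjusted p = 0.0175), 1.78 on chow and −0.15 on HFD. The LIRKO chow libraries were at 19.3, 20.8, 24.1 and 24.0 CPM against 4.35 to 8.01 in Ctrl chow (median 6.45). On HFD the LIRKO libraries were at 4.01, 4.60 and 4.44 and the Ctrl libraries at 4.67, 3.82, 5.33, 4.91 and 5.28, within one range. Etv5 was also the only gene to pass the genotype by diet interaction (0.00519% of genes, −1.93, 95% interval −2.41 to −1.45, adjusted p = 0.0051), while 1065 genes (5.52%) had an unadjusted p under 0.05 there and DESeq2 called 42. Etv5 did not pass the interaction with the pairs summed or without LIRKO HFD replicate 1, and its call with diet as a block was lost in both settings with summed pairs. The next smallest interaction p-values belonged to the calcium-binding protein Necab2 (1.14 on chow, −0.52 on HFD, adjusted p = 0.126) and Gc (−1.08, adjusted p = 0.126). Igf1r, the IGF1 receptor, was at 0.14 on chow and −1.08 on HFD. On HFD it was at 120, 149 and 152 CPM in LIRKO against 252 to 372 in Ctrl (adjusted p = 0.0272), and it was not shared.

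Markers of other cell types were tested on lists of their own. Among 9 beta cell markers 3 were shared falls, namely Mafa, Pdx1 and Slc2a2, and their summed level was 142351 to 233678 CPM in Ctrl chow, 170727 to 220979 in LIRKO chow, 99357 to 203770 in Ctrl HFD and 109789 to 208761 in LIRKO HFD. Of 10 alpha cell markers Gc (1.45, SE 0.15, adjusted p = 3.25e-05), Slc38a5 (1.34) and Ttr (0.56) were shared rises. The defining alpha gene Gcg was not (0.00, SE 0.66), and the summed alpha markers overlapped between genotypes on both diets (500 to 1952 and 666 to 2287 CPM on chow, 593 to 4437 and 733 to 3870 on HFD). Gc did not overlap on either diet, with 248, 224 and 229 CPM in LIRKO HFD against 118 to 165 in Ctrl HFD. Between the close LIRKO chow pairs Gcg differed widely, replicate 2 being at 104 CPM and replicate 4 at 1670.

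Msln, a marker of mesothelium, was the 1 shared fall among 3 tested of 8 mesothelial markers. It was at 23.3 to 58.7 CPM in Ctrl chow, 9.38 to 14.0 in LIRKO chow, 13.6 to 36.9 in Ctrl HFD and 0.610 to 3.53 in LIRKO HFD. Spp1 (1.63, adjusted p = 0.00699) was the 1 shared rise among 7 tested duct markers. No tested marker of delta (5 of 7 tested), PP (5 of 5), acinar (17 of 18), endothelial (17 of 17), stellate (11 of 11) or Schwann cells (2 of 7), macrophages (15 of 15), lymphocytes (2 of 10) or erythrocytes (2 of 5) was a shared gene. Sst and Ppy, the hormones of delta and PP cells, were at −0.74 (adjusted p = 0.17) and −1.28 (adjusted p = 0.142). The part of other cell types in the shared changes was not tested.

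Single Ctrl libraries leaned toward LIRKO in many shared genes. Ctrl HFD replicate 4 was the highest of the 5 Ctrl HFD libraries in 355 of the 660 raised genes (53.8%), against 22.7% over all genes, and the lowest in 33.4% of the lowered genes against 18.01%. Ctrl chow replicate 3 was the highest of 6 in 24.5% of the raised genes against 11.9%, and the lowest in 25.1% of the lowered genes against 14.1%. For Ctrl chow replicate 1 these shares were 28.2% against 21.0% and 29.8% against 18.5%. Without Ctrl HFD replicate 4 the number of shared genes was 1636. Without LIRKO HFD replicate 1 it was 1685, and without LIRKO chow replicate 3 or replicate 4 it was 715 or 730.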

How the data were processed

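RNA-seq was made from sorted beta cells in 18 libraries of 4 groups. The deposited table holds counts, the whole number of reads per Ensembl gene and library. STAR, featureCounts and GRCm38 are listed in the submitters' processing notes, and the sources used here give neither versions nor the annotation release and strand setting. Of 53090 IDs 52403 were named with GENCODE M21, the rest adding up to 0.102% or less of any library's counts. All columns were used.

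In R 4.3.3 with edgeR 4.0.16, filterByExpr with the 4 groups kept 19284 genes, libraries were scaled by TMM, and glmQLFit and glmQLFTest were fitted with diet plus genotype. Changes within a diet and the interaction came from a fit with 1 coefficient per group, and separate fits used the 10 chow or the 8 HFD libraries. Tests are two-sided with Benjamini-Hochberg adjustment over all genes of each of the 4 comparisons, and genes passed under 0.05. The SE is the log2 change divided by the square root of F. The common dispersion had a square root of 0.313. Intervals are 95% (change ± 1.96 SE). CPM were computed from TMM-scaled library sizes.

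Depth was 19490235 to 51714775 counts per library. The genes, lists and tests were chosen with earlier results of these data known. Genes named are the 15 largest rises and 15 largest falls among shared protein-coding genes with an average log2 CPM of at least 2, the 3 shared members with the smallest p per list, fixed genes, called genes of opposite sign, the 3 smallest interaction p-values and the 3 most abundant genes per marker list. Some of these are left out, and list members outside the rule were named after their values were seen. Lists are described by counts and medians. Alternatives were RLE scaling, no filter, DESeq2 1.42.0, summed close pairs, libraries left out, the mean of the within-diet changes and no diet block. Leaving out Ctrl HFD replicates 1 and 2 while the pairs were summed was added after seeing the data. Promoter windows are from RefSeq and were searched for the ER stress element and the other motifs named with it.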

Additional observations from a re-analysis of the deposited data

Results flagged for a closer look

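A library was marked where the gap to its nearest neighbour took up more of the group's range than Dixon's 95% critical value allows. Chance marks about 1 in 20 groups, and 336 groups were tested, those of Ctrl chow, LIRKO chow and Ctrl HFD. LIRKO HFD, with 3 libraries, was too small to be tested. There were 29 such values, all in Ctrl libraries, and 1 gene that differed between the diets. The LIRKO chow libraries form close pairs, so an extreme value there mostly has a near neighbour and is seldom marked. The lack of marks in LIRKO libraries therefore says little about them.

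Ctrl chow replicate 3 stood out toward LIRKO for C1qtnf1 (3.79 CPM, others at most 1.06), Aldh1a3 (21.1, others at most 2.19), Aass (3.22), Rapgef5 (14.0), Gfra1 (6.21), Ntn1 (5.69), Iqsec3 (3.84), Lin7a (3.32) and Lama5 (9.14, others at most 2.03).

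Ctrl HFD replicate 4 stood out toward LIRKO for Egln3 (16.0 CPM), Plod2 (9.73), Iqsec3 (7.53), Arrdc4 (28.8), Cyp26b1 (3.68), Gc (164.5), Hilpda (22.1) and Dusp4 (27.3), and low for Lpl (113, others at least 189). It was also high for Mki67 (9.79 CPM, others at most 3.77).

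In Ctrl chow, replicate 1 was high for Plod2 (6.95 CPM), Fosl2 (21.8), Hsp90b1 (2360) and Bhlhe40 (91.9) and low for Ltbp2 (3.05). Replicate 2 was high for Serpina7 (80.3) and Stc2 (2.11). Replicate 4 was low for Scg2 (4023), and replicate 6 was high for Pcx (304). Ctrl HFD replicate 2 was high for Thrsp (2.33).

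Etv5 was the gene whose genotype change differed between the diets by a test of the difference (−1.93 on the log2 scale, edgeR adjusted p = 0.0051). It did not pass with the close LIRKO chow pairs summed or without LIRKO HFD replicate 1. What sets these libraries apart was not tested.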

How the results depend on the processing

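Of 112 genes with alternatives, 101 passed, and 49 of these passed in all 26 settings run, 75 without any 1 library. No passing gene changed sign in a setting. With the close LIRKO chow pairs summed 41 lost their call, and without Ctrl HFD replicates 1 and 2 those lost were Ffar1, Ffar3, Cyc1, Hilpda and Kdm3a. Summing leaves fewer libraries, and the cause of the other changes was not tested.

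DESeq2 called 1906 genes with diet as a block, of which 1898 were shared, 1649 on chow, 316 on HFD and 42 in the interaction. With pairs summed the counts were 490 with diet as a block and 490 shared, 193 on chow, 54 on HFD and 0 in the interaction (1065 at an unadjusted p under 0.05 with all libraries apart). Without Ctrl HFD replicates 1 and 2 there were 1765 on chow, 193 on HFD, 8 in the interaction and 498 shared genes without overlap. With both changes there were 630 with diet as a block, 630 shared, 363 on chow, 2 in the interaction and 422 without overlap. Without the diet block 793 passed and 792 were shared.

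Leaving out 1 library at a time gave 716 to 1692 genes with diet as a block, 715 to 1685 shared genes and 270 to 691 without overlap. It gave 431 to 1126 on chow, 10 (without LIRKO HFD replicate 3) to 162 (without Ctrl HFD replicate 4) on HFD and 0 to 3 in the interaction. The same sign on both diets was seen for 56.6% to 69.1% of all genes, and for 80.1% to 91.4% of genes called in the chow libraries alone. Where a group of 3 libraries was left with 2, the others supply most of the spread.

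Ins1, Ins2 and Gcg, which did not pass, changed sign. Ins1 ran from −0.0344 to 0.14, Ins2 from −0.16 to 0.0159 and Gcg from −0.24 to 0.20 with 1 library left out. Ins1 was −0.0023 with pairs summed. Ins2 was 0.0931 and Gcg −0.20 without Ctrl HFD replicates 1 and 2, and 0.12 and −0.23 with pairs summed as well.

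No paired analysis was possible because the labels carry no replicate numbers or pairing.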
